A study of Mus musculus with 24 samples.

Results

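The genes described here are 35 mouse genes of protein folding and secretion in the endoplasmic reticulum (ER) and of the unfolded protein response. They were taken by symbol from a list by function, out of 41388 genes in the files, and all 35 were found and passed the filter on low counts. By role they are 3 sensors and transcription factors, 11 folding chaperones and their partners, 5 disulfide and proline isomerases, 9 genes of translocation and signal peptide cleavage, and 7 genes of ER-associated degradation. Polyadenylated RNA of mouse liver was sequenced in a design with 2 factors, genotype and feeding. Control mice carried a floxed allele (fl/fl in the titles, wild type in the design text), and knockout mice lacked alanine transaminase 2, the product of Gpt2, in the liver. Mice of either genotype were fed ad libitum or fasted for 18 h, with 6 libraries named in each group. The promoter that drives Cre, whether controls carried Cre, the exons removed, and strain and age are not given in the sources used. Of the 24 libraries, 22 were used: 5 control fed, 5 control fasted, 6 knockout fed and 6 knockout fasted. No label ties each library to an animal of its own, and p-values therefore measure the spread between libraries, which may be technical.

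Proteins bound for secretion enter the ER through the Sec61 channel, lose their signal peptide, and are folded, oxidised and glycosylated before export, and those that fail to fold are drawn back to the cytosol and degraded. When unfolded proteins accumulate, the sensors IRE1 (Ern1), ATF6 and PERK raise folding capacity, IRE1 by splicing the mRNA of the transcription factor XBP1. Hepatocytes secrete most plasma proteins, and feeding and fasting are known to move this pathway in liver.

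Control fed replicate 6 had a damaged file and held none of the 35 genes. The library labelled control fasted replicate 4 went against its tissue label: it held 123 CPM (counts per M assigned reads, scaled by TMM factors in the libraries used and unscaled in this one) of the hepatocyte gene Alb, against 44430 to 118300 CPM in the 22 libraries used, and 7041 CPM of the kidney gene Kap, against at most 8.97 CPM. Both were left out, and counts with the second are given where they differ. The 22 libraries held 18.4 to 55.3 M reads. Gpt2 itself lay between 307 and 795 CPM in the control libraries and between 48.3 and 148 CPM in the knockout libraries, and no library used went against its genotype label. The 8 hepatocyte markers were present in every group, with summed levels of 73990 to 159400 CPM per library.

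The promoters of some of these genes carry the ER stress response element, which ATF6 and XBP1 are known to use. It was searched as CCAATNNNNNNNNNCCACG on both strands, in RefSeq windows of GRCm38.p6 that reach from 250 bases before the start site to 50 after it. Of the 35 genes 29 had a window, and 9 of the 29 held the element, as did 37 of all 27025 genes with a window (0.14%). The shorter element ERSE-II, searched on both strands as ATTGG and CCACG with any 1 base between them, stood in 2 of the 29 and in 12 of all genes (0.04%). It shares CCACG with the first element, and no gene of the 29 held both. The XBP1 core TGACGTGG was in none of the 29 windows and in 0.71% of all genes. The bare CCACG, which each of these elements contains on 1 of its strands, was in 24 of 29 and in 35.48% of all genes. Matches are descriptions of letters, not bound sites. The upstream parts of 6 windows are printed because they show where the element lies in genes that the results turn on, 5′ to 3′ on the strand of the gene, with the letters of CCAAT and CCACG, or of their reverse complements, in capitals.
Hspa5, chr2:34771840-34772089, + strand: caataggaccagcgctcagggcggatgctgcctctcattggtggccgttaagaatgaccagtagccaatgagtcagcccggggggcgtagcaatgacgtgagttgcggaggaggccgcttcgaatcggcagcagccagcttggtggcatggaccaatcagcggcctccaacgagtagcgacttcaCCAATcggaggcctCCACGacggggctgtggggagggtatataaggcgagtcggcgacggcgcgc
Hsp90b1, chr10:86705445-86705694, - strand: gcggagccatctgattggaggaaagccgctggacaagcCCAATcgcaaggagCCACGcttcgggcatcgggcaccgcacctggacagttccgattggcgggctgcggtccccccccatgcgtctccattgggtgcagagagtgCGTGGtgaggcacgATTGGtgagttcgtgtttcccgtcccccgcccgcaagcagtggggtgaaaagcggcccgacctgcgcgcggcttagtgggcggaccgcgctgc
Canx, chr11:50325674-50325923, - strand: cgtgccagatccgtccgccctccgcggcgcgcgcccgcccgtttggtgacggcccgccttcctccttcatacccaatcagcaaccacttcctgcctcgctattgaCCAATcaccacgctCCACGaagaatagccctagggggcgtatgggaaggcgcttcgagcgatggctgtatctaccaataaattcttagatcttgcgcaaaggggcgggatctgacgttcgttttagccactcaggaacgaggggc
Pdia6, chr12:17266339-17266588, + strand: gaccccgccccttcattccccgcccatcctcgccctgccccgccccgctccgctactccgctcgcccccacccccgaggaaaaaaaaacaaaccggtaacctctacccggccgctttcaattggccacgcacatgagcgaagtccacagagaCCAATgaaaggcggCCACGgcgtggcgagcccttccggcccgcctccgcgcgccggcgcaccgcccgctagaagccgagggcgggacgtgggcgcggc
Creld2, chr15:88819396-88819645, + strand: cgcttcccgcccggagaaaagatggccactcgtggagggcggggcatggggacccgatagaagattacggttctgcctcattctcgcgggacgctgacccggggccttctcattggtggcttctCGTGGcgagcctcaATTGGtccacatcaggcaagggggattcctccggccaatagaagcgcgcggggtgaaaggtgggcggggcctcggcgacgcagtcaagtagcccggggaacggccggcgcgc
Herpud1, chr8:94386179-94386428, + strand: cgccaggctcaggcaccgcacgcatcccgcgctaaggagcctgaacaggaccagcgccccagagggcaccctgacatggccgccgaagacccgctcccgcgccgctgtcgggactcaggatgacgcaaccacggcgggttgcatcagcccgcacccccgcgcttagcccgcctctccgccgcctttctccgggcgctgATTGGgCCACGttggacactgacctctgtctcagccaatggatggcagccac

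The element lay nearest to the start site in Syvn1 (bases -44 to -26) and Hspa5 (-65 to -47), and Hsp90b1 held it at -212 to -194 and, on the opposite strand, at -107 to -89. The matches of the genes whose windows are not printed are given in the orientation of the element, to show the spacer between its conserved ends, which differs from gene to gene.
Calr, ERSE, bases -162 to -144, opposite strand: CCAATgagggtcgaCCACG
Derl3, ERSE, bases -156 to -138, opposite strand: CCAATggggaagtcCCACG
Dnajc3, ERSE, bases -105 to -87, same strand: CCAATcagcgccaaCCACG
Dnajb11, ERSE-II, bases 8 to 18, same strand: ATTGGcCCACG
Syvn1, ERSE, bases -44 to -26, same strand: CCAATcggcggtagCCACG

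**Figure D1:**
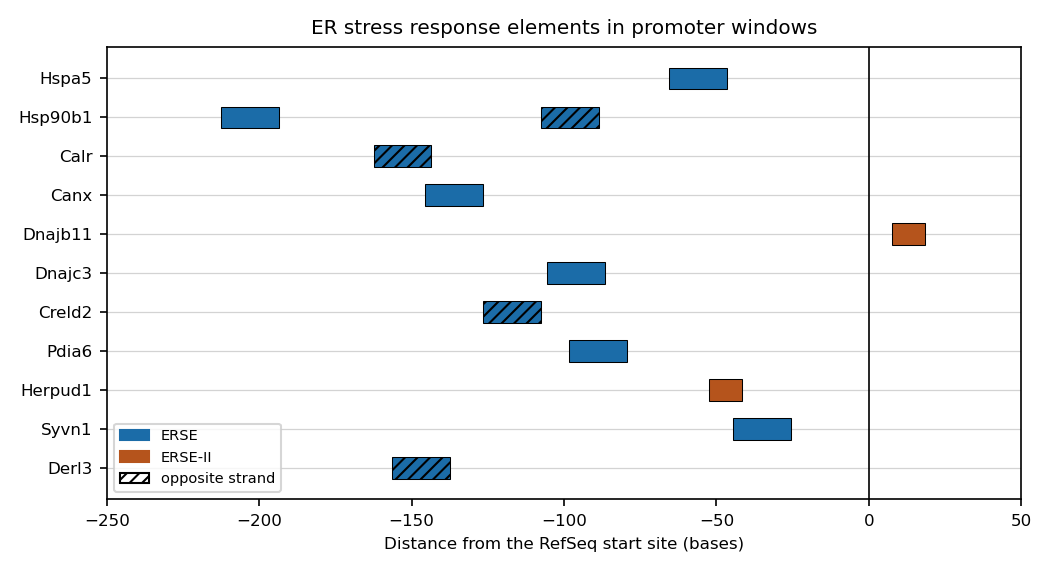
Position of each match to the ER stress response element (ERSE, blue) or ERSE-II (orange) in the promoter windows of 11 genes, in bases from the RefSeq start site. Hatched boxes are on the opposite strand, and all matches but that of Dnajb11 (8 to 18) lie before the start site.

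Per length the set was led by enzymes and chaperones of the ER lumen. In control fed livers P4hb, the classical protein disulfide isomerase, had 435 ± 34.2 RPKM (reads per kilobase and M reads, SD, n = 5). The lectin chaperone calreticulin (Calr) followed with 247 ± 18.5 RPKM and the Hsp70 chaperone BiP (Hspa5) with 154 ± 12.9 RPKM. The sensors stood low among the 35, Ern1 at 9.56 ± 1.17 and Atf6 at 6.95 ± 0.63 RPKM, while Xbp1 had 44.2 ± 7.85 RPKM. Derl3 was last with 1.11 ± 0.66 RPKM. Of the 34 neighbouring pairs in the order 29 had overlapping ranges.

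Fasting of control mice lowered many of these genes and raised none. By the quasi-likelihood test of edgeR (Benjamini-Hochberg adjusted p under 0.05 over 16757 genes), 11 of the 35 fell and 0 rose, where 4.13% of all genes tested fell and 3.99% rose. The median log2 fold change of the 35 was -0.40, against 0.00 over all genes, and 31 of 35 were negative. The falls were uneven over the roles: 2 of 3 sensors and transcription factors, 3 of 5 isomerases, 5 of 9 genes of translocation, 1 of 7 of degradation and 0 of 11 chaperones. In bulk tissue, fewer cells of a type and less RNA per cell cannot be told apart. The count was 7 without control fed replicate 4, 17 when only the groups compared entered the fit, and 9 to 13 in the other alternatives.

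**Figure D2:**
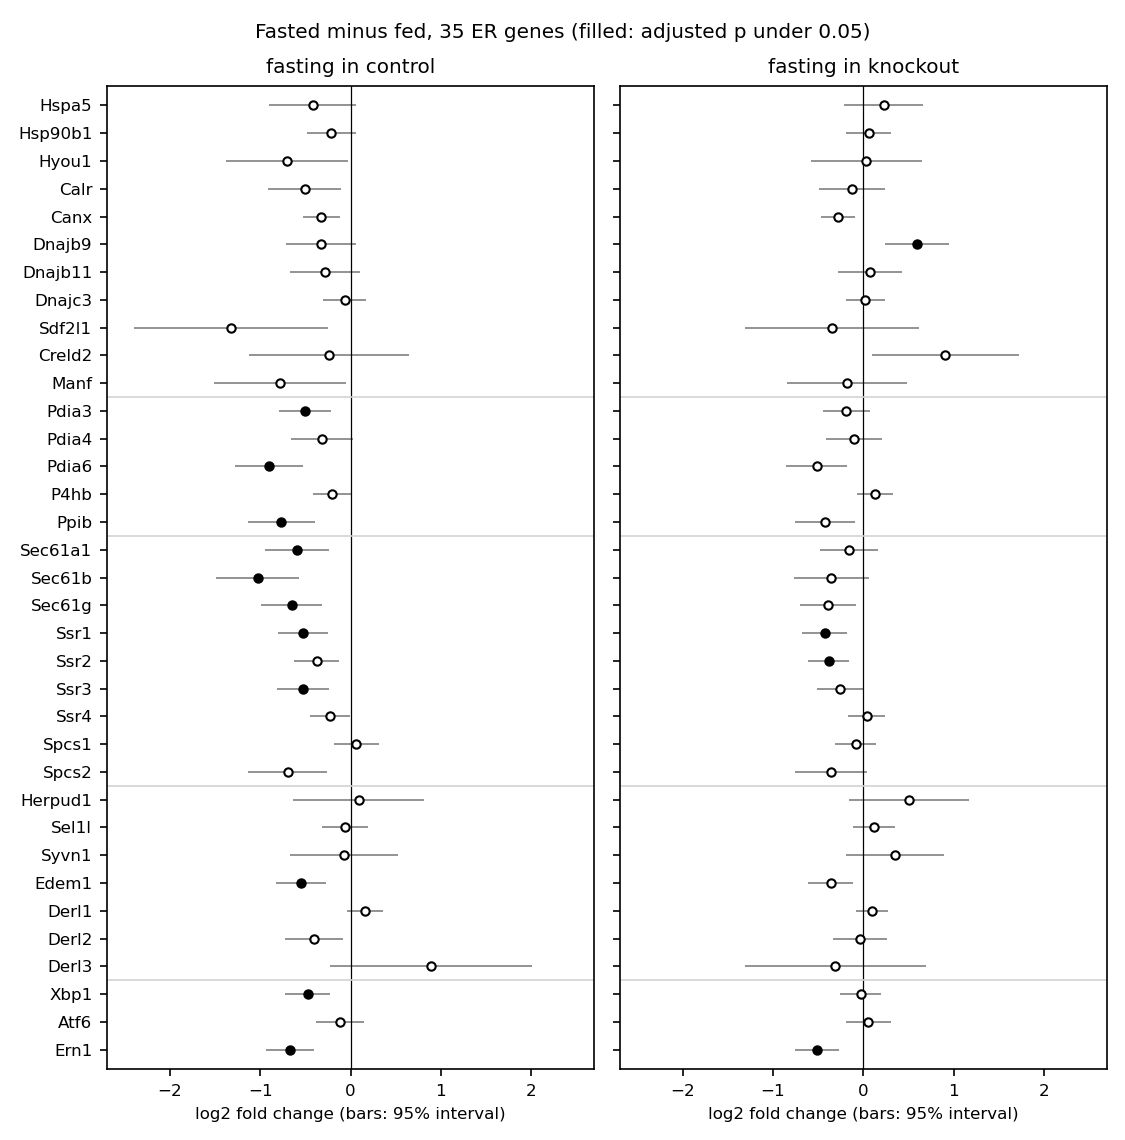
Log2 fold change of fasted against fed livers for each of the 35 genes, in control (left) and knockout mice (right), with bars for the 95% interval. Filled points passed an adjusted p of 0.05 (11 at left, 4 at right), and grey lines part chaperones, isomerases, translocation, degradation and sensors from top to bottom.

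Ern1 and Xbp1, the sensor and the factor whose mRNA it splices, both fell in control mice. Ern1 stood at 71.1, 68.5, 78.1, 92.9 and 80.1 CPM in control fed livers and at 55.2, 65.0, 41.1, 32.6 and 51.1 CPM in control fasted livers. Every fasted library lay below every fed one. The log2 fold change was -0.68 ± 0.14 (SE, adjusted p = 0.000872, edgeR). Xbp1 stood at 142, 136, 187, 119 and 135 CPM in fed and at 115, 98.3, 107, 95.6 and 102 CPM in fasted control livers, again without overlap. Its fold change was -0.47 ± 0.13 (adjusted p = 0.0142), and without control fed replicate 3, the highest library, it was -0.36 and did not pass (adjusted p = 0.0839, edgeR). Counts per gene do not separate spliced from unspliced Xbp1. Atf6, whose protein is cut in the Golgi to release a transcription factor, ranged from 57.2 to 71.6 CPM fed and from 49.5 to 66.7 CPM fasted, a log2 difference of -0.12 ± 0.14 (adjusted p = 0.745, edgeR), with groups that overlapped.

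The chaperones all had negative fold changes in control mice, with a median of -0.33. Of the 11, 0 passed edgeR's test, 1 passed in DESeq2, and 3 (Calr, Canx and Sdf2l1) had an unadjusted p under 0.05 in edgeR, as did 9.74% of all genes in that direction. Hspa5, the main Hsp70 of the ER and the usual marker of ER stress, stood at 555, 515, 609, 537 and 488 CPM fed and at 503, 456, 352, 343 and 369 CPM fasted. The groups overlapped through control fasted replicate 1, and the difference was -0.42 ± 0.25 (adjusted p = 0.39, edgeR). Hsp90b1 (GRP94), the Hsp90 of the ER, went from a mean of 318 ± 41.5 to 274 ± 31.0 CPM (SD, n = 5 each), a log2 difference of -0.21 ± 0.14 (adjusted p = 0.439, edgeR). Sdf2l1, a small partner of BiP and its J-proteins, stood at 21.7, 30.0, 19.4, 39.1 and 28.2 CPM fed and at 11.8, 12.0, 11.1, 3.52 and 16.8 CPM fasted. These groups did not overlap, yet the difference of -1.33 ± 0.55 did not pass (adjusted p = 0.174, edgeR). Manf, an ER protein that is also secreted, had a difference of -0.78 ± 0.37 (adjusted p = 0.258) and Creld2, a stress-inducible ER protein, of -0.24 ± 0.45 (adjusted p = 0.862, edgeR). When only the 2 control groups entered the fit, Hspa5 (adjusted p = 0.0325), Sdf2l1 (0.0278) and Manf (0.0418) passed edgeR's test, with fold changes of -0.41, -1.32 and -0.78.

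Among the isomerases Pdia6, which exchanges disulfides and binds BiP, fell most. It stood at 205, 226, 183, 261 and 206 CPM fed and at 115, 147, 99.3, 103 and 114 CPM fasted. The lowest fed library exceeded the highest fasted one, and the log2 fold change was -0.90 ± 0.19 (adjusted p = 0.00241, edgeR). Ppib, the proline isomerase cyclophilin B, stood at 91.3, 86.7, 75.6, 89.1 and 94.3 CPM fed and at 66.6, 51.4, 39.4, 48.2 and 51.5 CPM fasted, without overlap (-0.77 ± 0.19, adjusted p = 0.00825, edgeR). Its exons share 54.2% of their bases with Snx22 on the opposite strand, whose reads came to 1.65% of those of Ppib. Pdia3 (ERp57), which works with calreticulin and calnexin on glycoproteins, fell by 0.51 ± 0.15 on the log2 scale (adjusted p = 0.0231, edgeR), and its call ended when any of control fed replicate 4 and control fasted replicates 3 and 5 was left out (adjusted p of up to 0.0716). The call of Pdia3 also ended with limma voom and sample weights (adjusted p = 0.0838). P4hb, at a mean of 1246 ± 97.9 CPM fed and 1083 ± 49.0 CPM fasted (SD, n = 5 each), differed by -0.20 ± 0.11 (adjusted p = 0.327, edgeR).

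The translocation channel itself fell in all 3 of its subunits. Sec61b stood at 49.9, 53.3, 47.2, 35.9 and 38.8 CPM fed and at 27.0, 23.7, 18.0, 16.6 and 25.1 CPM fasted. Again no fasted library reached the fed ones, and the log2 fold change was -1.03 ± 0.24 (adjusted p = 0.00543, edgeR). Sec61g fell from 34.9 ± 6.93 to 22.2 ± 2.48 CPM (SD, n = 5 each; -0.65 ± 0.17 SE, adjusted p = 0.0133, edgeR), and without control fed replicate 4, its highest library, the difference was -0.52 (adjusted p = 0.0668). Sec61a1, the pore subunit, fell by 0.60 ± 0.18 on the log2 scale (adjusted p = 0.0373, edgeR). That call was among the least secure: it ended without any of control fed replicates 1, 2 and 4 or control fasted replicates 2, 3, 5 and 6 (adjusted p of up to 0.119). It also ended with no filter beyond 1 count and with limma voom and sample weights. Ssr1 and Ssr3, subunits of the translocon-associated TRAP complex, both fell by 0.52 (SE 0.14 and 0.15, adjusted p = 0.0144 and 0.0194, edgeR). The call of Ssr3 ended when control fed replicate 4, control fasted replicate 3 or control fasted replicate 6 was left out (adjusted p of up to 0.0696). With limma voom and sample weights it ended too (adjusted p = 0.056). The signal peptidase subunit Spcs2 went from 52.9 to 68.7 CPM fed to 27.9 to 48.1 CPM fasted, without overlap, and came just short of the threshold (-0.70 ± 0.22, adjusted p = 0.0527, edgeR). Reads could be split with its pseudogene Spcs2-ps, which held 3.67% as many reads.

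Of the degradation genes Edem1, a lectin that hands misfolded glycoproteins to the exit path, fell. It stood at 124, 152, 128, 141 and 161 CPM fed and at 122, 87.8, 81.0, 100 and 91.0 CPM fasted. Control fasted replicate 1 came close to the lowest fed library without reaching above it, and the log2 fold change was -0.55 ± 0.14 (adjusted p = 0.00937, edgeR). Sel1l and Syvn1, the core of the HRD1 ubiquitin ligase, had differences of -0.06 and -0.07. Herpud1, a stress-inducible partner of that ligase, had a wider control fed spread than any other of the 35 except Derl3, with 498 CPM in control fed replicate 2 and 160 to 248 CPM in the others, and a difference of 0.09 ± 0.37.

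Counted by whole ranges, 16 of the 35 genes had every control fasted library below every control fed one and 0 lay wholly above, where 4.03% and 3.87% of all genes tested did so. Besides the 11 that passed they were Canx, Dnajb11, Sdf2l1, Spcs2 and Ssr2. Markers of exocrine pancreas, a tissue rich in these transcripts, were mostly too low to be tested. Their summed level was 27.3 to 39.8 CPM in control fed and 3.43 to 8.48 CPM in control fasted libraries. Of the 9 pancreas genes matched, 2 were tested and 1 fell. In every control fed library 3 of them (Cela3b, Pnlip and Cel) were at 0, and in every control fasted library 6, with Cpa1, Prss1 and Ctrb1 besides. Plasma cell markers, another secretory cell type, summed to 222 to 335 CPM fed and 209 to 375 CPM fasted. Of 8 stellate cell and fibroblast markers 2 fell, with sums of 119 to 160 CPM fed and 77.6 to 133 CPM fasted, and of 8 Kupffer cell and macrophage markers 0 passed, with sums of 125 to 206 and 112 to 140 CPM. Of 8 endothelial markers 6 were positive, 1 rose and 0 fell, with sums of 119 to 187 CPM fed and 146 to 200 CPM fasted. The part of other cells in the falls was not tested.

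In knockout mice fasting moved fewer of the genes past the threshold. Here 3 fell (Ern1, Ssr1 and Ssr2) and 1 rose (Dnajb9), where 3.26% of all genes fell and 2.88% rose by the same test. The median of the 35 was -0.10, against 0.01 over all genes, with 21 negative and 14 positive. It rested on single libraries: it was -0.25 (28 negative) without knockout fasted replicate 4, -0.05 without knockout fed replicate 3, and -0.036, -0.041 and -0.027 without knockout fasted replicates 3, 5 and 6. With limma voom and sample weights it was -0.23 (26 negative), and with library totals -0.17 (25 negative). Ern1 was the clearest: its knockout fed libraries lay at 63.4, 77.9 and 87.1 CPM (lowest, median, highest) and the fasted ones at 48.9, 53.5 and 58.5 CPM. It was the only gene of the 35 whose fasted libraries lay wholly below the fed ones in knockout mice, as did 2.15% of all genes, and 0 lay wholly above (1.81% of all genes). Its log2 fold change was -0.51 ± 0.12 (adjusted p = 0.00673, edgeR), a call that held without any 1 of the 22 libraries and ended with the library labelled control fasted replicate 4 (adjusted p = 0.153 at the same fold change).

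The other calls in knockout mice were less secure. Ssr1 lay at 76.0, 84.4 and 96.4 CPM fed and at 45.2, 60.2 and 93.2 CPM fasted (lowest, median, highest), with overlap through knockout fasted replicate 4 (-0.43 ± 0.13, adjusted p = 0.0377, edgeR). Ssr2, another TRAP subunit, fell by 0.38 ± 0.12 on the log2 scale (adjusted p = 0.0381, edgeR). Dnajb9 (ERdj4), a co-chaperone that returns IRE1 to its resting state with BiP, lay at 15.3, 22.7 and 31.9 CPM fed and at 26.3, 32.4 and 50.6 CPM fasted. The ranges overlapped, and the log2 fold change was 0.60 ± 0.18 (adjusted p = 0.042, edgeR). The call of Ssr1 ended without any of knockout fed replicates 2, 3, 4 and 5 or knockout fasted replicates 3, 5 and 6 (adjusted p of up to 0.111). That of Ssr2 ended without any of knockout fed replicates 1, 3, 4 and 6 or knockout fasted replicates 3, 5 and 6 (up to 0.121). That of Dnajb9 ended without any of control fasted replicate 6, knockout fed replicates 1, 2, 3 and 6 or knockout fasted replicates 2, 3 and 4 (up to 0.125). Of 9 alternative fits with other tools, scalings, filters or libraries, 2 ended the call of Ssr1, 5 that of Ssr2 and 3 that of Dnajb9. The count of 4 became 1 without knockout fed replicate 3 or knockout fasted replicate 3, and 0 with the library labelled control fasted replicate 4. It became 1 when only the groups compared entered the fit, and 7 with limma voom and sample weights (6 lower, 1 higher). Scaled by library totals 6 fell and 0 rose. The pancreas markers summed to 11.8 to 30.0 CPM in knockout fed and 5.98 to 8.29 CPM in knockout fasted libraries. Of the 9 matched, 2 were tested and 1 fell, and 6 were at 0 in every knockout fed library and 5 in every knockout fasted one. Of the 8 stellate cell and fibroblast markers 7 were negative and 1 fell, with sums of 141 to 182 CPM fed and 90.9 to 146 CPM fasted. Of 8 endothelial markers 4 were positive, 1 rose and 0 fell, with sums of 176 to 265 CPM fed and 169 to 269 CPM fasted. The part of these cells in the changes was not tested.

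The stress markers were uneven between the knockout fasted livers. Hspa5 lay at 337, 445 and 659 CPM in knockout fed and at 364, 488 and 1025 CPM in knockout fasted livers (lowest, median, highest). The highest value was that of knockout fasted replicate 4, and the difference was 0.23 ± 0.22 (adjusted p = 0.773, edgeR) with it and -0.03 without it. Creld2 lay at 9.21, 17.0 and 40.5 CPM fed and at 17.8, 21.1 and 90.2 CPM fasted, a difference of 0.91 ± 0.42 (adjusted p = 0.279, edgeR), with the same library highest and a difference of 0.41 without it. Sdf2l1 (-0.34 ± 0.49), Manf (-0.18 ± 0.34), Hsp90b1 (0.06 ± 0.13), Atf6 (0.06 ± 0.13) and Xbp1 (-0.03 ± 0.12) did not pass either. Without knockout fasted replicate 4 the differences of Sdf2l1 and Manf were -0.83 and -0.47. Pdia6 and Edem1, which fell in control mice, had differences of -0.52 ± 0.17 (adjusted p = 0.0795) and -0.36 ± 0.13 (adjusted p = 0.0933, edgeR) here.

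**Figure D3:**
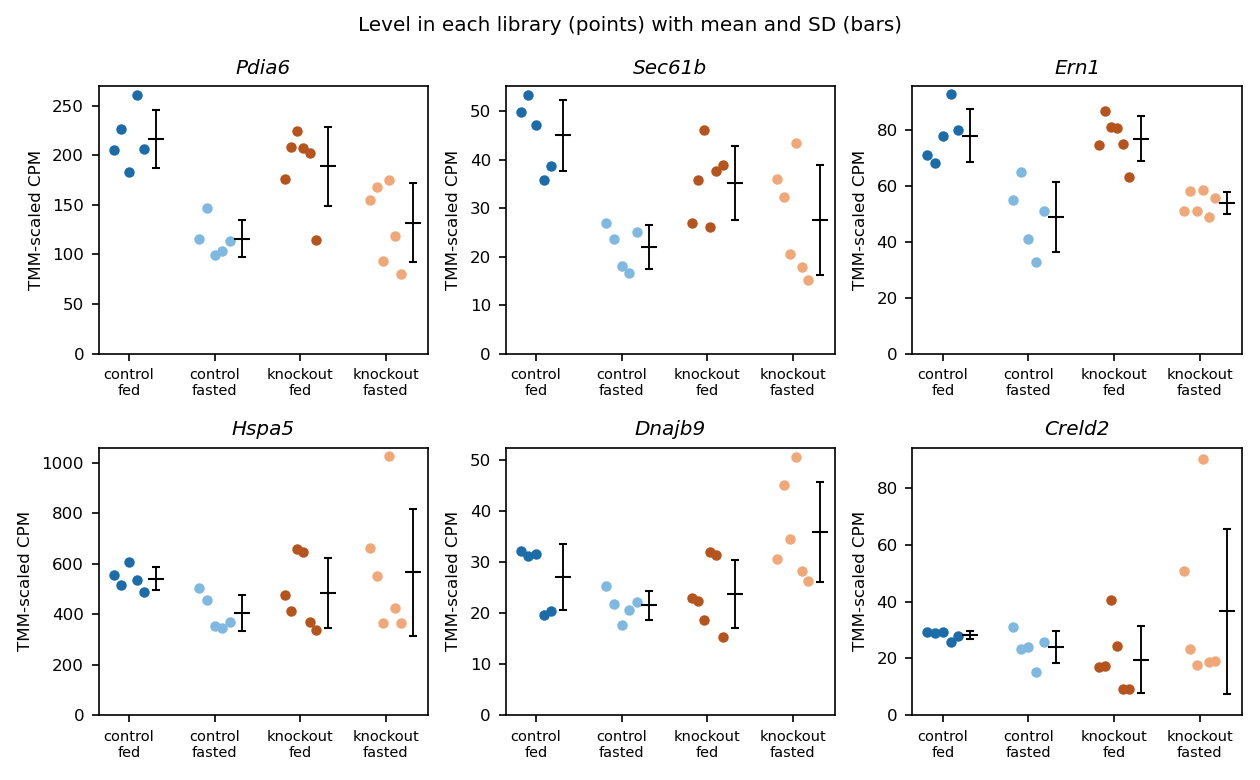
Level in each library (points) of 6 genes in TMM-scaled CPM by group, with the mean and SD. Pdia6, Sec61b and Ern1 lie lower in every control fasted library than in any control fed one, while Hspa5, Dnajb9 and Creld2 each reach their highest value in knockout fasted replicate 4.

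With fasting averaged over the genotypes, 14 of the 35 fell and 0 rose, where 7.26% of all genes fell and 7.08% rose, and the median was -0.25. They were the 11 of the control mice together with Canx (-0.30 ± 0.07, adjusted p = 0.00252), Spcs2 (-0.53 ± 0.15, adjusted p = 0.017) and Ssr2 (-0.38 ± 0.09, adjusted p = 0.00154, edgeR). Calnexin (Canx) is the membrane lectin chaperone of newly made glycoproteins and the only chaperone of the 11 that passed. Of the 9 genes of translocation 7 fell, of the 5 isomerases 3, of the 7 degradation genes 1. Of the other cell types 3 of 8 stellate cell and fibroblast markers, 1 of 2 pancreas markers tested and 1 of 6 plasma cell markers tested fell. Of 8 endothelial markers 2 rose and 0 fell. The part of all these cells was not tested. Xbp1 passed narrowly (-0.25 ± 0.09, adjusted p = 0.0452, edgeR), and its call ended when any 1 of 15 libraries was left out. The call of Sec61a1 (adjusted p = 0.0335, edgeR) ended when any 1 of 9 was left out, and with no filter beyond 1 count. The averaged calls of Xbp1 and Sec61a1 also ended with the library labelled control fasted replicate 4. Over all contrasts 15 of the 35 genes passed at least once and 20 never did.

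Between the genotypes no gene of the 35 passed in fed mice. By edgeR's test 0% of all genes were higher and 0.00597% (1 gene, Gpt2) lower, and DESeq2 also called 0 of the 35. At an unadjusted p under 0.05, 0 were higher and 1 lower, where 5.37% and 3.63% of all genes were. The median was -0.09, which became -0.04 without knockout fed replicate 5, -0.015 without knockout fed replicate 6 and -0.05 with library totals. The 3 genes of smallest p were Ssr4, a TRAP subunit (-0.22 ± 0.11, adjusted p = 0.553), P4hb (-0.19 ± 0.11, adjusted p = 0.63) and Derl3, a derlin of low level (0.94 ± 0.55, adjusted p = 0.657, edgeR).

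In fasted mice no gene of the 35 passed either, but most leaned to the knockout side. Of the 35, 33 had a positive log2 difference, with a median of 0.26 against 0.01 over all genes. Without knockout fasted replicate 4 the median was 0.11 (31 of 35 positive), and with limma voom and sample weights it was 0.16. By edgeR 0% of all genes passed as higher and 0.00597% as lower. At an unadjusted p under 0.05, 6 were higher and 0 lower, where 2.73% and 1.28% of all genes were, and DESeq2 also called 0. Dnajb9 had the smallest p: it stood at 25.2, 21.8, 17.6, 20.6 and 22.2 CPM in control fasted livers and at 26.3, 32.4 and 50.6 CPM in knockout fasted livers (lowest, median, highest). It was the only gene of the 35 whose knockout fasted libraries lay wholly above the control fasted ones, as did 0.31% of all genes, and the log2 difference was 0.74 ± 0.19 (adjusted p = 0.622, edgeR). Ssr3 (0.38 ± 0.14) and Edem1 (0.31 ± 0.13) came next, both at an adjusted p of 1. Hspa5 differed by 0.48 ± 0.24, Hsp90b1 by 0.27 ± 0.13, Xbp1 by 0.27 ± 0.12, Atf6 by 0.26 ± 0.13 and Ern1 by 0.14 ± 0.13, all at an adjusted p of 1. Without knockout fasted replicate 4 the differences of Hspa5, Hsp90b1 and Atf6 were 0.22, 0.17 and 0.13. That of Ern1 ran from 0.02 without control fasted replicate 5 and 0.08 without control fasted replicate 3 to 0.26 without control fasted replicate 2, and that of Ssr3 was 0.25 without knockout fasted replicate 2. Markers of Kupffer cells and macrophages leaned the same way, with 8 of 8 positive, 0 passing and sums of 112 to 140 CPM in control fasted and 122 to 266 CPM in knockout fasted libraries. The 8 endothelial markers did so too, with 8 of 8 positive, 0 passing and sums of 146 to 200 and 169 to 269 CPM. In fed mice, where 23 of the 35 genes were negative, 8 of 8 endothelial and 7 of 8 Kupffer cell and macrophage markers were positive as well. Averaged over feeding 2 of the 8 endothelial markers passed as higher in knockout mice, where 0.0298% of all genes did. The part of these cells in the difference was not tested.

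**Figure D4:**
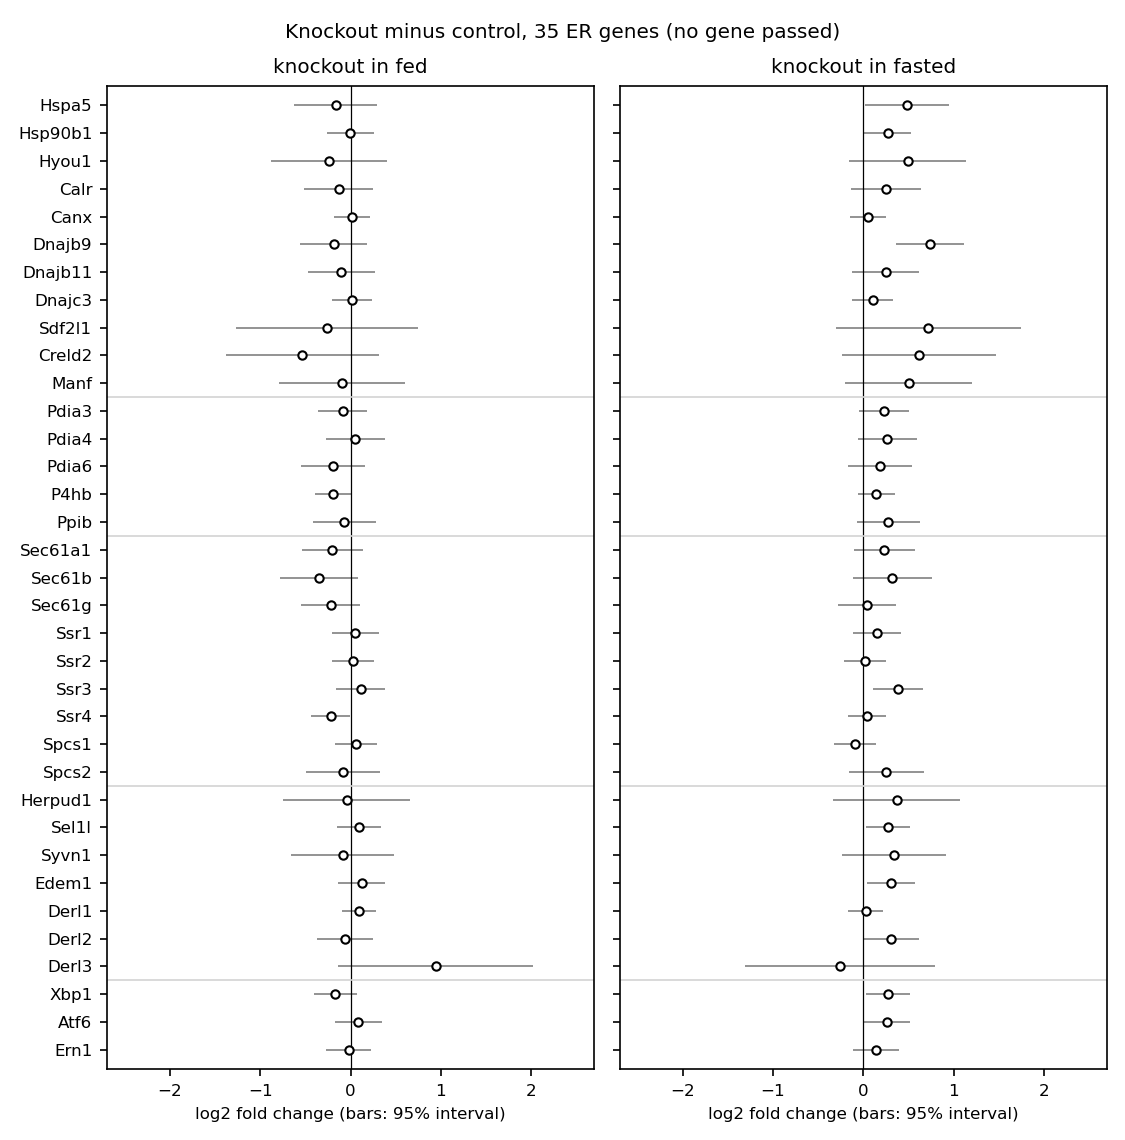
Log2 fold change of knockout against control livers for the 35 genes, in fed (left) and fasted mice (right), with bars for the 95% interval. No gene passed, and 33 of 35 points at right lie above 0.

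The change with fasting was not shown to differ between the genotypes for any of the 35. The interaction term of edgeR's fit called 0, where 0% of all genes were called higher and 0.00597% lower, and DESeq2 also called 0. At an unadjusted p under 0.05, 4 were higher and 0 lower, where 2.16% and 2.53% of all genes were. The differences of fold changes (knockout minus control) had a median of 0.34 and 31 of 35 were positive. The median was 0.21 without knockout fasted replicate 4 and 0.18 with limma voom and sample weights. The 3 of smallest p were Dnajb9 (0.93 ± 0.27, adjusted p = 0.819), Xbp1 (0.45 ± 0.17, adjusted p = 0.997) and P4hb (0.34 ± 0.15, adjusted p = 1, edgeR). For Hspa5 the interval of the difference (95%) ran from -0.01 to 1.30, and for Ern1 from -0.20 to 0.52. The knockout effect averaged over feeding also called 0 of the 35 by edgeR and by DESeq2 (0.0298% of all genes were higher and 0.00597% lower), with Ssr3 (0.25 ± 0.10, adjusted p = 0.461), Edem1 (0.22 ± 0.09, adjusted p = 0.509) and Sel1l (0.19 ± 0.09, adjusted p = 0.555) of smallest p. At an unadjusted p under 0.05, 4 were higher and 0 lower there, where 5.5% and 3.2% of all genes were.

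The genes varied together from library to library, most of all in knockout fasted livers. The ratio of the highest to the lowest library had a median over the 35 genes of 1.30 in control fed, 1.47 in control fasted, 1.68 in knockout fed and 2.08 in knockout fasted livers. Over the 7125 genes with a mean of at least 10 CPM, 34 of the 35 among them, it lay between 1.48 and 1.57 in the 4 groups. Knockout fasted replicate 4 was the highest of its group in 27 of the 35 genes, where it was highest in 19.4% of all genes tested. Its Creld2 stood at 90.2 CPM against 17.8 to 50.7 CPM in the other 5, and its Syvn1 at 195 against 46.3 to 155 CPM. Knockout fed replicate 3 was highest in 21 of 35 (17.3% of all genes) and knockout fed replicate 6 lowest in 20 (19.9%). Control fasted replicate 1 was highest in 20 (19.3%), which became 8 when levels were scaled by library totals. On that scale, chosen after the data were seen, the counts of the first 3 libraries were 21 (11.2% of all genes), 12 (10.5%) and 17 (15.4%). The TMM factors of knockout fasted replicate 4, control fasted replicate 1 and knockout fed replicate 3 were 0.88, 0.88 and 0.94, with hepatocyte marker sums of 159400, 136500 and 134600 CPM, each the highest of its group, and their part in the levels was not tested.

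**Figure D5:**
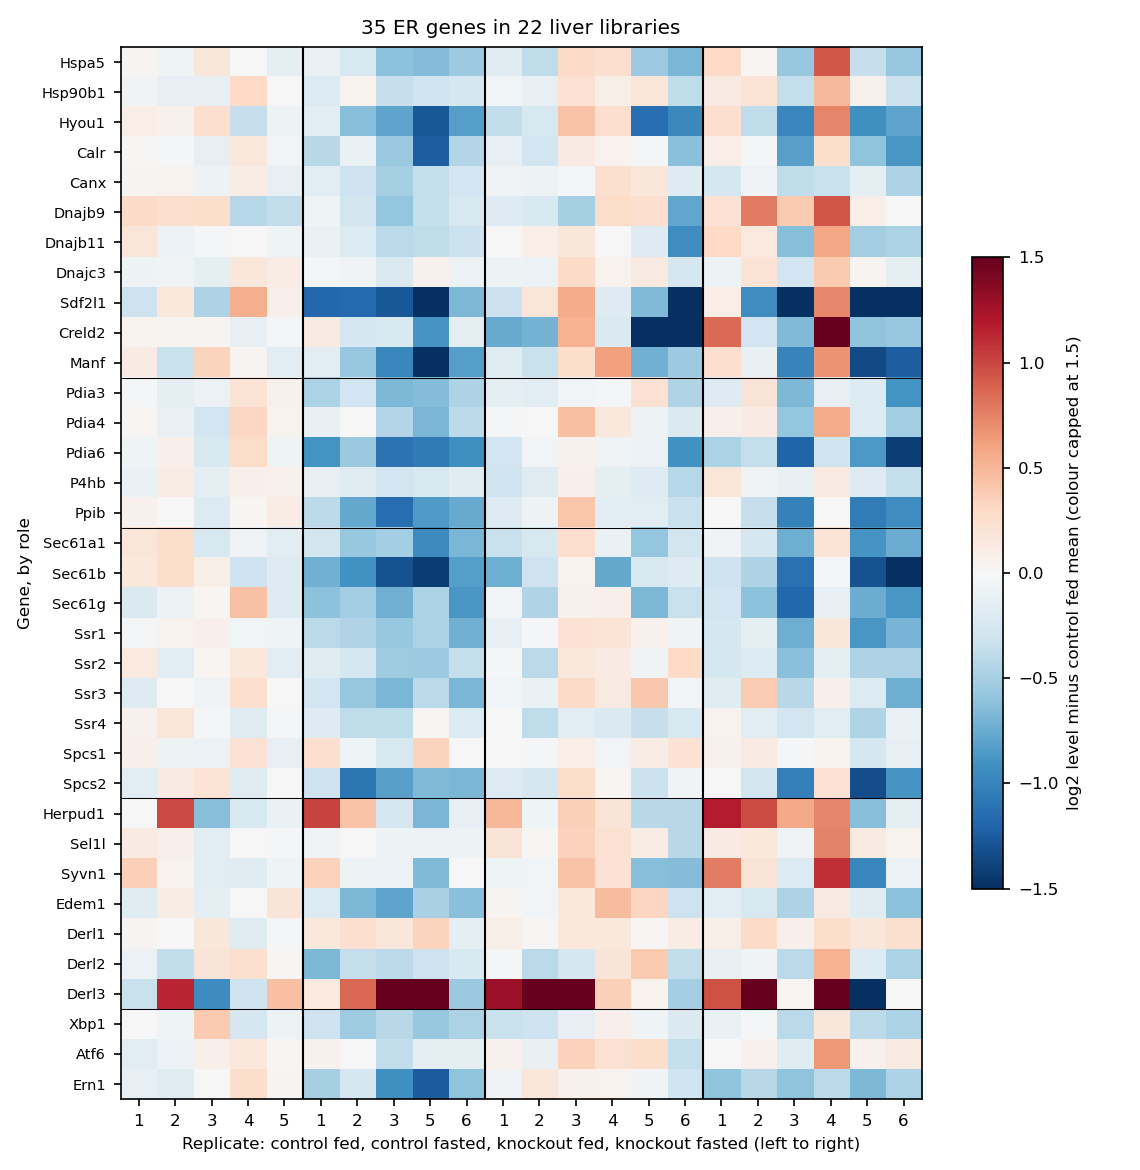
Log2 level of each of the 35 genes in each of the 22 libraries minus the control fed mean (red higher, blue lower, colour capped at 1.5), with genes by role from chaperones at the top to sensors at the bottom. Blue fills most of the control fasted block, and knockout fasted replicate 4 is red in most rows while replicates 3, 5 and 6 of that group are mostly blue.

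In knockout fasted livers spread was alike in most roles and lower among the sensors and transcription factors. The 11 chaperones had median ratios of 1.25 in control fed and 2.33 in knockout fasted livers, with Sdf2l1 at 7.96 in the latter. In the same 2 groups the isomerases had 1.28 and 2.12, the translocation genes 1.3 and 2.08, and the degradation genes 1.46 and 1.99. The 3 sensors and transcription factors had 1.36 and 1.56, and Ern1 only 1.20 in knockout fasted livers. Ern1 thus fell in both genotypes and varied little within the knockout fasted group, where Hspa5 varied 2.82-fold.

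The presence of the promoter element was set beside these changes. Of the 11 genes with ERSE or ERSE-II in their window, 1 (Pdia6) fell in control fasting, where 4.13% of all genes fell, and the median was -0.24. Of the 18 with a window and neither element, 9 fell and the median was -0.52. Averaged over the genotypes 2 of the 11 (Canx and Pdia6) and 10 of the 18 fell, where 7.26% of all genes fell. In knockout fasted livers the median highest-to-lowest ratio was 2.33 in the former and 2.03 in the latter. Most genes with an element were chaperones, a role in which 0 of 11 fell in control fasting. None was a translocation gene, a role in which 5 of 9 fell, so element and role cannot be told apart here. No difference between these sets was tested.

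Other genes of the secretory pathway, from lists of 95 genes, were counted in the same fit. In control fasting 16 of the 95 fell and 6 rose, with a median of -0.16, where 4.13% of all genes fell and 3.99% rose. In knockout fasting 3 fell and 5 rose, where 3.26% of all genes fell and 2.88% rose. The oligosaccharyltransferase, which attaches glycans at the channel, had 7 of 12 subunit genes lower and 1 higher in control mice. Among them Krtcap2 fell by 0.93 ± 0.17, Ddost by 0.84 ± 0.16 and Rpn2 by 0.55 ± 0.10 on the log2 scale (adjusted p = 0.000392, 0.000363 and 0.000229, edgeR). In knockout mice 1 of the 12 rose, Stt3b, the catalytic subunit that also acts after translation (0.55 ± 0.11, adjusted p = 0.000651, edgeR), and 1 fell. The 1 higher in control mice was Stt3b as well (0.51). Averaged over the genotypes it rose by 0.53 ± 0.08 (adjusted p = 6.19e-06, edgeR). Uggt1, which marks misfolded glycoproteins for another round with calnexin, fell by 0.58 ± 0.12 in control mice (adjusted p = 0.000961), and Edem2, a relative of Edem1, by 0.70 ± 0.16 (adjusted p = 0.00303, edgeR). Edem2 fell in knockout mice too (-0.56 ± 0.14, adjusted p = 0.0111), with the call ending without knockout fed replicate 3 (adjusted p = 0.0517, edgeR).

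Not all of the pathway moved down. Creb3l3, a liver ER-bound transcription factor cut like ATF6, rose in both genotypes, by 0.58 ± 0.13 in control (adjusted p = 0.0021) and 0.67 ± 0.12 in knockout mice (adjusted p = 0.000143, edgeR). Of 18 genes of the COPII coat and ER exit 3 rose and 2 fell in control mice, among them Sec16b (0.46 ± 0.10, adjusted p = 0.00224) and Sec23b (-0.80 ± 0.19, adjusted p = 0.00699, edgeR). In knockout mice 2 of the 18 rose, Sec23a (0.58 ± 0.11, adjusted p = 0.000472) and Sec16b (0.35 ± 0.09, adjusted p = 0.0155, edgeR). Averaged over the genotypes Sec23a rose by 0.50 ± 0.08 (adjusted p = 2.39e-05, edgeR). That averaged call ended with the library labelled control fasted replicate 4 (adjusted p = 0.128, edgeR). The calls of Creb3l3 (adjusted p = 0.818 and 0.777) and Sec16b (0.879 and 0.935) ended in both genotypes when the library labelled control fasted replicate 4 was included, as did those of Sec23a (0.23) and Edem2 (0.0987) in knockout mice. Sec16b in knockout mice also missed the threshold with library totals (adjusted p = 0.0854) and with no filter beyond 1 count (0.0561, edgeR). Of 10 genes of the PERK branch, the remaining arm of the response, 0 passed edgeR's test in either genotype and 0 passed in DESeq2. At an unadjusted p under 0.05 it was Chac1 in control (-1.51) and Atf4 in knockout mice (-0.38), named after their values were seen, where 9.74% and 7.95% of all genes were lower at that p. Averaged over the genotypes Atf4, the transcription factor of this branch, fell by 0.27 ± 0.09 (adjusted p = 0.0441, edgeR), a call that ended when any 1 of 15 libraries was left out.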

How the data were processed

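The deposited read counts per gene of 22 mouse liver libraries were used. Per the submitters' processing notes they were made with bcl2fastq, STAR 2.5.1a and Subread featureCounts 1.4.6-p5 on GRCm38; neither the annotation release nor the strand setting is given in the sources used here, and reads of antisense and overlapping genes cannot be told apart. Symbols came from GENCODE M21, which named 40254 of the 41388 genes (97.3%). Over 50 pairs of libraries within groups the lowest chi-square per degree of freedom was 37.4, so none of these pairs was a duplicate. Pairs between groups were not compared.

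The test was that of edgeR 4.0.16 under R 4.3.3 (robust quasi-likelihood, TMM factors, filterByExpr by group with a minimum count of 10 and a minimum total of 15). All 4 groups entered 1 fit without covariates, with the adjusted p (Benjamini-Hochberg, 16757 genes) called under 0.05. Alternatives used DESeq2 1.42.0 and limma 3.58.1, other scalings and filters, and each library left out. SE is the log2 fold change over the square root of F. The procedure was tested on simulated data.

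The 35 genes and all lists were chosen with earlier results of these data known. Named were the genes of the 35 that passed in any contrast, Hspa5, Hsp90b1, Xbp1, Atf6, Ern1, Sdf2l1, Creld2 and Manf, the 3 of smallest p where fewer than 3 passed, and of other lists up to 3 called genes of smallest p; other names were added for their level, spread, range or role. Of the other symbols listed, Amy2a was not matched, and Vimp and Tango1 are older names of listed genes. Promoter sequences came from RefSeq, GRCm38.p6.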

Additional observations from a re-analysis of the deposited data

Results flagged for a closer look

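In 7 of 140 groups of values (35 genes in 4 groups), a library stood apart from the others of its group, with a gap to the nearest above Dixon's 95% critical value. About 1 in 20 is flagged by chance, which here comes to 7. In knockout fasted replicate 4 Sel1l (248 CPM), Derl2 (80.4 CPM) and Atf6 (101 CPM) stood high. In control fed livers Hsp90b1 stood at 390 CPM in replicate 4, Dnajb11 at 84.3 CPM in replicate 1 and Herpud1 at 498 CPM in replicate 2. In knockout fed replicate 3 Ppib stood at 116 CPM.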

How the results depend on the processing

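No paired analysis was possible because the labels give no replicate numbers shared between groups; clusters of neighbouring title numbers, taken as a random block in limma, had a consensus correlation of -0.013 over 10 clusters and gave 13 genes of the 35 in control fasting. In control fasting the count of 11 became 17 with only the groups compared, and 7 to 13 with each library left out. In knockout fasting the count of 4 became 7 with limma voom and sample weights, 1 with only the groups compared, 0 with the library labelled control fasted replicate 4, and 1 to 5 with each library left out. The averaged count of 14 stayed at 12 to 15, and at 12 to 16 with each library left out. No genotype or interaction contrast called any of the 35 in any alternative run. Of the genes named, 5 that missed the threshold in knockout fasting changed sign. Atf6 (0.06) was -0.002 with library totals and -0.005 with voom, and Hsp90b1 (0.06) was -0.064 with voom. With each library left out Hspa5 ran from -0.027 to 0.336, Hsp90b1 from -0.037 to 0.132, Xbp1 from -0.106 to 0.025, Atf6 from -0.065 to 0.118 and Manf from -0.467 to 0.006. The causes were not tested. Over all genes the library labelled control fasted replicate 4 moved the calls from 1360 to 805, from 1029 to 379 and from 2404 to 1529 in control, knockout and averaged fasting, and library totals moved the share of higher calls in knockout fasting from 46.9% to 36.7%. DESeq2 called 68, 3, 37 and 6 of all genes for the knockout in fed, in fasted and averaged mice and for the interaction, against 1, 1, 6 and 1 by edgeR; library totals called 5 in fed and 12 averaged, and no filter beyond 1 count 14 and 12. The averaged knockout count was 3 with a mean CPM of at least 1, 2 with the random block and 1 with the library labelled control fasted replicate 4, which left 0 in the other 3 contrasts. With 5 or 6 libraries a group and the wide spread of stress genes, intervals such as that of the Hspa5 interaction are broad, and genes of low level, such as Derl3, rest on few reads per library.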

Other observations

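Each library was also summarised by the median, over the 35 genes, of its log2 level minus the control fed mean. The control fasted livers lay at -0.18, -0.27, -0.51, -0.54 and -0.41 (replicates 1, 2, 3, 5 and 6). In knockout fasted livers replicates 3, 5 and 6 lay at -0.57, -0.46 and -0.48, and replicates 1, 2 and 4 at 0.05, -0.05 and 0.26. The knockout fed livers lay at -0.06, -0.11, 0.22, 0.09, -0.07 and -0.35 (replicates 1 to 6). These values are given as they stand. Apart from the title numbers, whose meaning is not given, no label used here separates the libraries within a group.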
